A study of Caenorhabditis elegans with 12 samples.

Results

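The far genes of Caenorhabditis elegans encode small fatty acid and retinol binding proteins, and all 8 members, far-1 to far-8, were followed here among the 20389 gene rows of each library. They were chosen by symbol, each matching 1 row under its sequence name. The libraries came from young adults carrying fog-1(q253)ts, a temperature-sensitive allele kept at 25 °C, which turns germ cells of both karyotypes from sperm to oocyte development. The 4 groups were XO gonads, XX gonads, XO whole worms and XX whole worms, with 3 libraries each, and every group carried the allele. XO animals have a male body and XX animals a female one, so the groups differ in the sex of the soma as well as in the number of X chromosomes. Each gonad sample pooled at least 200 dissected gonads and each whole worm sample at least 600 hand-picked animals. Nothing in the labels ties the replicates to separate cultures, and p-values therefore measure only the spread between these samples, which may be technical.

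FAR proteins are helix-rich and nematode-specific, and they carry fatty acids and retinol, ligands that dissolve poorly in water. Parasitic nematodes release FAR proteins into the host, where they are studied as antigens and as lipid scavengers. By sequence, the C. elegans proteins have been sorted into a group of FAR-1, FAR-2 and FAR-6, a group of FAR-3, FAR-4 and FAR-5, and a group of FAR-7 and FAR-8. All 8 genes are autosomal. In the WBcel235 annotation, far-1 and far-2 are neighbours on chromosome III that point away from each other. The genes far-5, far-3 and far-4 follow each other on chromosome V, where far-5 and far-3 lie tail to tail on opposite strands and share 50 exonic bases. The gene far-6 lies on chromosome IV next to fat-2, a fatty acid desaturase gene, far-7 on chromosome II and far-8 on chromosome III, away from far-1. The exonic lengths ran from 612 bases for far-2 to 908 bases for far-6.

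Libraries held from 7912618 to 16140259 gene counts. Transcripts of the mutated gene, fog-1, were at 606 ± 17.5 CPM (counts per 1000000 gene counts, scaled between libraries by the trimmed mean of M-values, TMM) in XO gonads and 43.1 ± 4.31 CPM in XX gonads. They were at 312 ± 12.1 CPM in XO whole worms and 29.5 ± 1.19 CPM in XX whole worms (mean ± SD, n = 3 each). Replicate pairs differed by a chi-square of 4.8 to 19.7 per degree of freedom, apart from the pairs with XX gonad replicate 1, which reached 113 and 155. That library stood apart from the other XX gonads, and tests of far genes that rest on XX gonads are given with and without it. Germline and oocyte markers, 12 of 12 detected in every group, summed to between 16100 and 17500 CPM in XO gonads and between 17900 and 21000 CPM in XX gonads. They summed to between 9110 and 10200 CPM in XO whole worms and between 10700 and 11200 CPM in XX whole worms.

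The family was a minor part of the RNA of XO gonads and a larger part of that of XX gonads. Its 8 genes took 0.00763% ± 0.00155 of gene counts in XO gonads, 0.109% ± 0.0119 in XX gonads, 0.37% ± 0.0195 in XO whole worms and 0.351% ± 0.0129 in XX whole worms (SD, n = 3). The share in XX gonads was 0.102% without replicate 1 (n = 2). Nearly all of it came from far-1 and far-2, which held from 91.3% to 99.8% of the family's counts in each of the 12 libraries. Per kilobase of exonic length, far-2 was the highest member in every group. It averaged 77.9 CPM per kilobase in XO gonads, 1620 in XX gonads, 4230 in XO whole worms and 4960 in XX whole worms. On that scale far-2 took place 1772 among 19899 genes in XO gonads, 103 in XX gonads, 4 in XO whole worms and 7 in XX whole worms. The second member, far-1, averaged 37.4 CPM per kilobase in XO gonads, 166 in XX gonads, 996 in XO whole worms and 844 in XX whole worms.

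**Figure D1:**
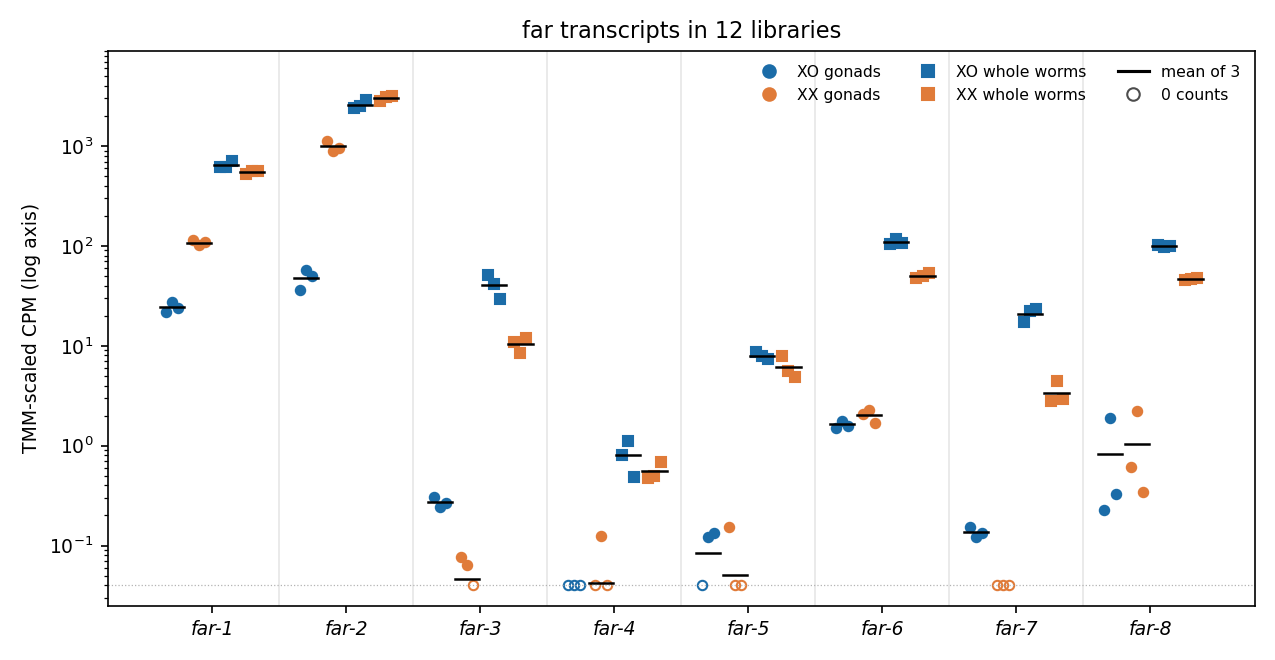
TMM-scaled CPM (log axis) of the 8 far genes in each of the 12 libraries, with circles for gonads, squares for whole worms and a black line for the mean of 3 libraries; open symbols on the dotted line are libraries with 0 counts. The values of far-1 and far-2 in XO gonads (21.9 to 27.5 and 36.2 to 56.9 CPM) lie below those in XX gonads (102 to 114 and 896 to 1120 CPM), while no other member exceeds 2.27 CPM in any gonad library.

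In gonads, far-1 and far-2 had lower levels in XO animals than in XX animals. The level of far-2 was 36.2, 56.9 and 49.8 CPM in XO gonads, against 1120, 896 and 958 CPM in XX gonads. All XO libraries lay far below all XX libraries, and the fitted log2 fold change of XO over XX was -4.35 (SE 0.22, adjusted p = 4.44e-05, Benjamini-Hochberg, from edgeR's quasi-likelihood test), a 20.4-fold lower level. Without XX gonad replicate 1, which had the highest far-2 level, the log2 fold change was -4.24 (adjusted p = 0.00014 by the same edgeR test). In bulk RNA, fewer cells of a type and less RNA per cell cannot be told apart.

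The neighbouring gene far-1 fell by less. It was at 21.9, 27.5 and 23.8 CPM in XO gonads, against 114, 102 and 109 CPM in XX gonads, with no overlap and little spread within each group. Its log2 fold change was -2.12 (SE 0.13, adjusted p = 7.46e-05 by edgeR's quasi-likelihood test), and -2.07 without XX gonad replicate 1. The remaining member of their group, far-6, was at 1.52, 1.78 and 1.59 CPM in XO gonads and 2.07, 2.27 and 1.7 CPM in XX gonads. These ranges overlapped, and the log2 fold change of -0.29 (SE 0.22) did not pass the test (adjusted p = 0.379 by edgeR). It was -0.26 without XX gonad replicate 1 (adjusted p = 0.533 by edgeR).

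The other 5 members had too few reads in gonads to be tested between karyotypes. Summed over 3 libraries, XO gonads held 12 counts of far-3 and XX gonads 2, a ratio of 5.47 with a 95% counting interval of 1.22 to 50.3. With XX gonad replicate 1 left out, 1 count of far-3 remained in XX gonads and the ratio was 7.43 (interval 1.1 to 318). For far-4 there were 0 counts in XO gonads and for far-5 4, against 2 of each gene in XX gonads. Both XX gonad counts of far-5 lay in replicate 1. Each XO gonad library held 2 counts of far-7, 6 in all, against 0 in XX gonads, where a count of 0 allows a level of up to 0.0739 CPM over the group. Counts of far-8 were uneven within both groups, at 3, 31 and 5 in XO gonads, against 8, 35 and 4 in XX gonads, so that replicate 2 was the high library in each. Intervals and limits cover counting error only, because PCR copies of 1 molecule cannot be recognised in these counts.

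Of the 3 members tested in gonads, 2 were lower in XO animals and none was higher, where 27.8% of all 8558 genes tested were called, 19.7% as lower and 8.07% as higher. Without XX gonad replicate 1, 42.6% of 8885 genes were called, 23.8% as lower and 18.8% as higher, and far-1 and far-2 were still lower. Without any other single gonad library, between 19.9% and 24.7% were called. The median log2 fold change of all genes was 0.02. Markers listed for single tissues also differed between the gonad groups. The listed tissue is only a label, and which cells of the gonad samples held these reads was not tested. The 5 somatic gonad sheath markers, all detected, summed to between 20.6 and 30.6 CPM in XO gonads and between 112 and 140 CPM in XX gonads, and 3 of the 4 tested fell. Body wall muscle markers, 8 of 8 detected, summed to between 144 and 212 CPM in XO gonads and between 458 and 571 CPM in XX gonads, and 6 of 8 fell. Of the pharynx markers, 4 of 5 were detected, with ceh-22 at 0 in both groups, and 1 of the 3 tested fell. That gene, tni-4, named after its values were seen, averaged 0.667 CPM in XO gonads and 22.9 CPM in XX gonads, in list sums of 0.729 to 10.1 CPM and 24.9 to 26.5 CPM, while myo-1 and myo-2 had log2 fold changes of 0.37 and 0.43 that did not pass. Neuron markers, 9 of 9 detected, summed to between 153 and 171 CPM in XO gonads and between 187 and 240 CPM in XX gonads, where 2 of the 8 tested rose and 1 fell. The numbers of sheath, muscle and pharynx markers that fell were 3, 6 and 1 without XX gonad replicate 1 too. For muscle the number was 5 when any 1 XO gonad library, or replicate 2 of XX gonads, was left out. It was also 5 with the replicate number as a block in the fit, and 7 without XX gonad replicate 3.

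Intestine and hypodermis markers lay the other way from far-1 and far-2. Intestine markers, 11 of 11 detected, summed to between 173 and 213 CPM in XO gonads and between 81.4 and 107 CPM in XX gonads, and 5 of 6 tested rose, or 7 of 7 without XX gonad replicate 1. The number of intestine markers that rose was 4 when replicate 1 or 3 of XO gonads, or replicate 2 of XX gonads, was left out. It was 3 with the replicate number as a block in the fit. Of 13 hypodermis and cuticle markers, 9 were detected in XO gonads, with a sum of 228 to 238 CPM, and 10 in XX gonads, with a sum of 129 to 179 CPM. In this list rol-6, bli-1 and bli-2 were at 0 in both groups and dpy-5 in XO gonads, and 3 of 4 tested rose. The number of hypodermis markers that rose was 1 when any 1 XO gonad library, or replicate 2 of XX gonads, was left out, and 0 with the block. The part of these tissues in the far-1 and far-2 difference was not tested.

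In whole worms, the family was nearly level between karyotypes as a sum, but 5 of 7 tested members differed. The summed level ran from 3290 to 3870 CPM in XO worms and from 3480 to 3830 CPM in XX worms. The members far-3, far-6, far-7 and far-8 were higher in XO worms and far-2 was lower, where 53.4% of all 12259 genes tested were called, 29.2% as higher and 24.2% as lower, with a median log2 fold change of 0.02. The largest difference was that of far-7, at 17.3, 22.2 and 23.4 CPM in XO worms, against 2.79, 4.47 and 2.93 CPM in XX worms. Its ranges stood apart, with a log2 fold change of 2.56 (SE 0.18, adjusted p = 4.99e-08 by edgeR's quasi-likelihood test), a 5.88-fold higher level.

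The other member of the far-7 group, far-8, was at 102, 97 and 100 CPM in XO worms, against 45.2, 46.4 and 48 CPM in XX worms. Replicates lay close together in both groups, and far-8 rose by 1.01 on the log2 scale (SE 0.06, adjusted p = 1.32e-08 by edgeR's quasi-likelihood test). With all 12 libraries in the fit, which share an estimate of spread with the uneven gonad counts, far-8 was at 1.10 and did not pass (adjusted p = 0.07 by edgeR). A difference of almost the same size was found for far-6, at 105, 118 and 107 CPM in XO worms, against 47.4, 49.7 and 54 CPM in XX worms. The groups did not overlap, with a log2 fold change of 1.04 (SE 0.07, adjusted p = 2.63e-08 by edgeR).

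On chromosome V, far-3 was at 50.7, 41.3 and 29.2 CPM in XO worms, against 10.9, 8.53 and 11.9 CPM in XX worms. The XO libraries spread widely but all lay above the XX libraries, and far-3 rose by 1.85 on the log2 scale (SE 0.23, adjusted p = 0.000316 by edgeR's quasi-likelihood test). Its neighbour far-5 was at 8.57, 7.94 and 7.37 CPM in XO worms and 7.98, 5.63 and 4.91 CPM in XX worms. These ranges overlapped and far-5 did not pass (log2 fold change 0.28, SE 0.19, adjusted p = 0.247 by edgeR). It did pass without XX worm replicate 1, the highest XX library, at 0.50 (adjusted p = 0.0417 by edgeR). Since it is not known whether counting used strand, reads over the 50 shared bases, 7.43% of the exonic length of far-3, cannot be assigned to far-3 or far-5 with certainty. The remaining gene of this cluster, far-4, had only 28 counts over the XO worms and 22 over the XX worms and was not tested.

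The abundant members moved little in whole worms. The level of far-2 was 2390, 2490 and 2890 CPM in XO worms, against 2830, 3130 and 3140 CPM in XX worms. XO replicate 3 overlapped with the lowest XX library, and far-2 fell by 0.31 on the log2 scale (SE 0.09, adjusted p = 0.0116 by edgeR's quasi-likelihood test). This call was lost without XO worm replicate 2 (-0.30, adjusted p = 0.0584 by edgeR) and with all 12 libraries in the fit (-0.23, adjusted p = 0.26 by edgeR). For far-1, XO worms had 618, 624 and 710 CPM and XX worms 527, 557 and 569 CPM. These did not overlap, yet the log2 fold change of 0.15 (SE 0.07) did not pass (adjusted p = 0.0706 by edgeR).

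**Figure D2:**
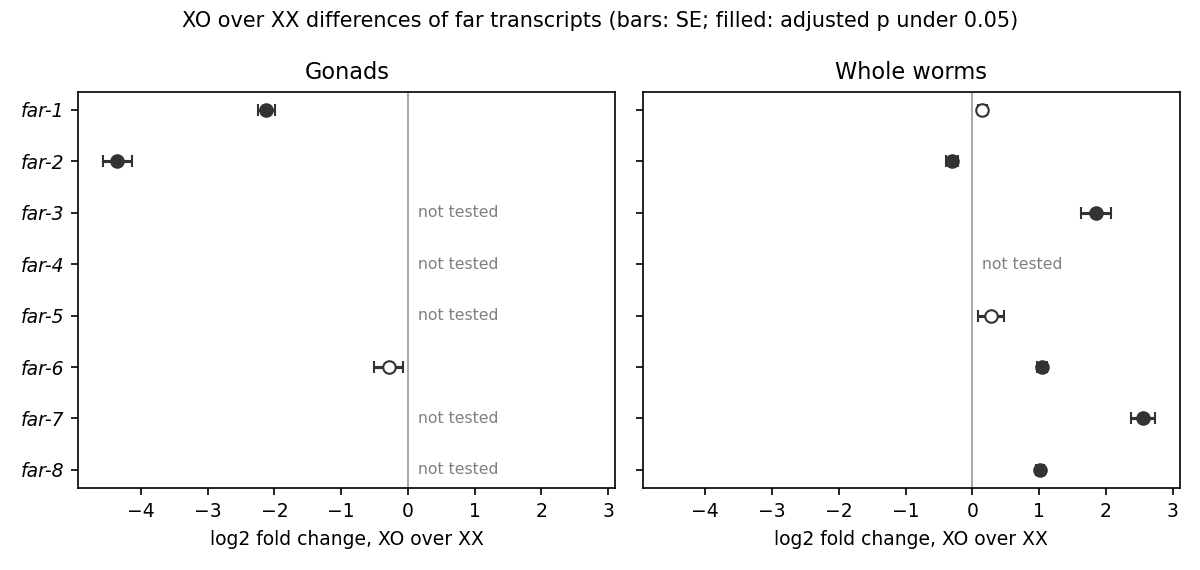
Log2 fold changes of XO over XX for each far gene in gonads (left) and whole worms (right), with bars for SE; filled circles passed the test at an adjusted p of 0.05, open circles did not. In gonads far-1 (-2.12) and far-2 (-4.35) fell, whereas in whole worms far-3, far-6, far-7 and far-8 rose by 1.01 to 2.56 and far-2 fell by 0.31.

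Tissue markers differed between the whole worm groups as well. Neuron markers summed to between 823 and 849 CPM in XO worms and between 343 and 373 CPM in XX worms, with 9 of 9 detected in both, and 8 rose while 1 fell. Body wall muscle markers, 8 of 8 detected, summed to between 15000 and 16000 CPM in XO worms and between 6900 and 8900 CPM in XX worms. Hypodermis and cuticle markers overlapped, at 5770 to 7300 CPM in XO worms and 6190 to 8070 CPM in XX worms, with 13 of 13 detected. Of 11 intestine markers tested, 2 rose, 4 fell and 5 did not pass, with a median log2 fold change of -0.08. Their sum, 4540 to 5530 CPM in XO worms and 3970 to 4610 CPM in XX worms, was mostly asp-1, at 4020 CPM in XO worms and 2970 CPM in XX worms, named after its values were seen. Markers of the male soma, 8 of 8 detected in XO worms and 7 in XX worms, where lov-1 was at 0, summed to between 194 and 206 CPM in XO worms and between 3.03 and 3.64 CPM in XX worms. Their part in the far differences was not tested.

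The karyotype difference itself differed between gonads and whole worms for 3 members. The interaction, the log2 fold change of XO over XX in gonads minus that in whole worms, was -4.15 for far-2 (SE 0.22), -2.39 for far-1 (SE 0.14) and -1.44 for far-6 (SE 0.18). Adjusted p was 1.07e-07, 1.92e-07 and 9e-05 in that order by edgeR's quasi-likelihood test on all 12 libraries, in which 17% of 12528 genes were called, 14.1% as lower and 2.96% as higher. The values were -4.05 for far-2, -2.34 for far-1 and -1.43 for far-6 without XX gonad replicate 1, and all passed. For far-6 the larger part was the rise of 1.04 in whole worms, against a gonad difference of -0.29 that did not pass. Both make its interaction negative. The interaction of far-3 (0.31, SE 0.65), far-5 (0.39, SE 1.09), far-7 (1.30, SE 0.91) and far-8 (-1.48, SE 0.87) did not pass, with wide errors. These 4 were, without XX gonad replicate 1, at 0.68, 3.04, 1.31 and -1.77 in the same order and did not pass either. That of far-8 did pass without XO gonad replicate 2, the library with 31 of the 39 far-8 counts, at -3.05 (adjusted p = 0.0311 by edgeR).

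The ratio of far-2 to far-1 reads differed between the groups. In gonads far-2 fell by more than far-1, and in whole worms far-2 fell while far-1 did not. There were 1.65, 2.07 and 2.09 far-2 reads per far-1 read in XO gonads, against 9.81, 8.79 and 8.82 in XX gonads. Whole worms lay between, with 3.86, 4 and 4.07 in XO worms and 5.38, 5.62 and 5.52 in XX worms. None of the 4 ranges overlapped with another, with or without XX gonad replicate 1, and a ratio within a library does not depend on the scaling between libraries. On the log2 scale the ratio was lower by 2.24 in XO than in XX gonads and by 0.47 in XO than in XX worms. It was higher by 0.73 in XX gonads than in XX worms and lower by 1.05 in XO gonads than in XO worms. Each of these 4 comparisons had p = 0.1 by an exact 2-sided permutation test (adjusted p = 0.1), the smallest that 3 against 3 libraries allow. This ratio was chosen after the values were seen.

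**Figure D3:**
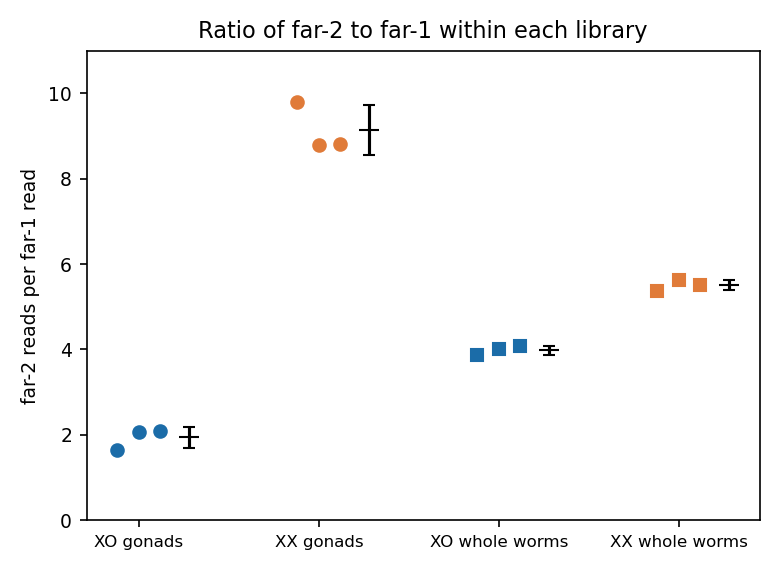
Number of far-2 reads per far-1 read within each library, by group, with the mean and SD of 3 libraries beside the points. The 3 XX gonad libraries lie highest (8.79 to 9.81) and the 3 XO gonad libraries lowest (1.65 to 2.09), with the whole worm groups between.

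Set against whole worms, all 7 far members tested were lower in gonads in both karyotypes. In XO animals 79.8% of all 12528 genes tested were called, 50.3% as lower in gonads, and in XX animals 71%, 42.4% as lower. The median log2 fold change over all genes was -0.83 in XO and -0.32 in XX animals, and -0.97 and -0.48 with DESeq2's size factors, so the scaling moves all fold changes between tissues together. The members far-3, far-5, far-7 and far-8 passed the filter on low counts only through the whole worms, where they are high, and so had to differ. In XX animals, far-2 in gonads was at 32.6% of its whole worm level (log2 fold change -1.62, SE 0.15) and far-1 at 19.6% (-2.35, SE 0.10). Without XX gonad replicate 1 these log2 fold changes were -1.70 and -2.38. In XO animals, far-2 in gonads was at 1.84% of its whole worm level (-5.77, SE 0.18) and far-1 at 3.75% (-4.74, SE 0.11). All 4 differences passed edgeR's quasi-likelihood test, with adjusted p from 2.5e-11 to 1.34e-06.

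The other members had few gonad reads. Gonads held 1.48% (XO) and 4% (XX) of the whole worm level of far-6, with log2 fold changes of -6.07 (SE 0.13) and -4.63 (SE 0.13), the second being -4.62 without XX gonad replicate 1. For far-8 the gonad level was 0.823% (XO) and 2.27% (XX) of that in whole worms, with log2 fold changes of -6.84 (SE 0.61) and -5.36 (SE 0.58). These values rested on single libraries: without XO gonad replicate 2 the first was -8.41, and without XX gonad replicate 2 the second was -6.69, against -5.04 without XX gonad replicate 1. The level of far-3 in XO gonads was 0.672% of that in XO worms (-7.17, SE 0.31). In XX gonads its 2 counts gave a level that XX worms exceeded 214-fold, with a counting interval of 58.9 to 1770, or 291-fold (51.9 to 11500) on 1 count without XX gonad replicate 1. For far-5, XO gonads held 1.07% of the XO worm level on 4 counts, and XX worms exceeded XX gonads 124-fold (interval 34 to 1030) on 2 counts. Without XX gonad replicate 1, which held both, far-5 was at 0 in XX gonads and at least 56.2-fold lower there than in XX worms. The level of far-7 was 0.648% of the whole worm level in XO gonads and at least 45.5-fold lower in XX gonads than in XX worms (30.9-fold without XX gonad replicate 1), and that of far-4 was at least 11.8-fold lower in XO gonads than in XO worms. XX worms exceeded XX gonads 11.4-fold in far-4, with an interval of 2.8 to 99.8 on 2 gonad counts, or 7.73-fold (1.9 to 67.8) without XX gonad replicate 1.

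For comparison, the gonad level of each marker gene was set against its whole worm level. This view, gene by gene, was chosen after the list sums were seen. Several markers were not low in gonads, so a list's values do not measure how much of a tissue the gonad libraries held: nhr-23, listed for the hypodermis, was at 168% of its whole worm level in XO gonads and 155% in XX gonads. Likewise spl-1, listed for the intestine, was at 80.5% (XO) and 67.5% (XX), the neuron marker snb-1 at 73.1% (XO) and 128% (XX) and the pharynx marker tni-4 at 2.8% (XO) and 70.2% (XX). The median over each list was 3.03% (XO) and 0.97% (XX) for 11 intestine markers, and 2.26% (XO) and 1.53% (XX) for 13 hypodermis and cuticle markers. It was 1.25% (XO) and 6.45% (XX) for 8 body wall muscle markers, and 2.97% (XO) and 12.2% (XX) for 9 neuron markers. The 5 sheath markers had medians of 28.5% (XO) and 78% (XX).

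In XX gonads, far-2 at 32.6% lay above 10 of 11 intestine, 11 of 13 hypodermis, 8 of 8 muscle, 4 of 5 pharynx, 7 of 9 neuron and 1 of 5 sheath markers. There far-1, at 19.6%, lay above 10, 11, 7, 4, 6 and 0 markers of these lists in the same order. In XO gonads, far-2 at 1.84% lay above 1 of 11 intestine, 5 of 13 hypodermis, 7 of 8 muscle, 4 of 5 pharynx, 1 of 9 neuron and 0 of 5 sheath markers. There far-1, at 3.75%, lay above 9, 9, 8, 5, 6 and 1 of them. These counts describe positions, and what part any tissue had in the far values was not tested.

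**Figure D4:**
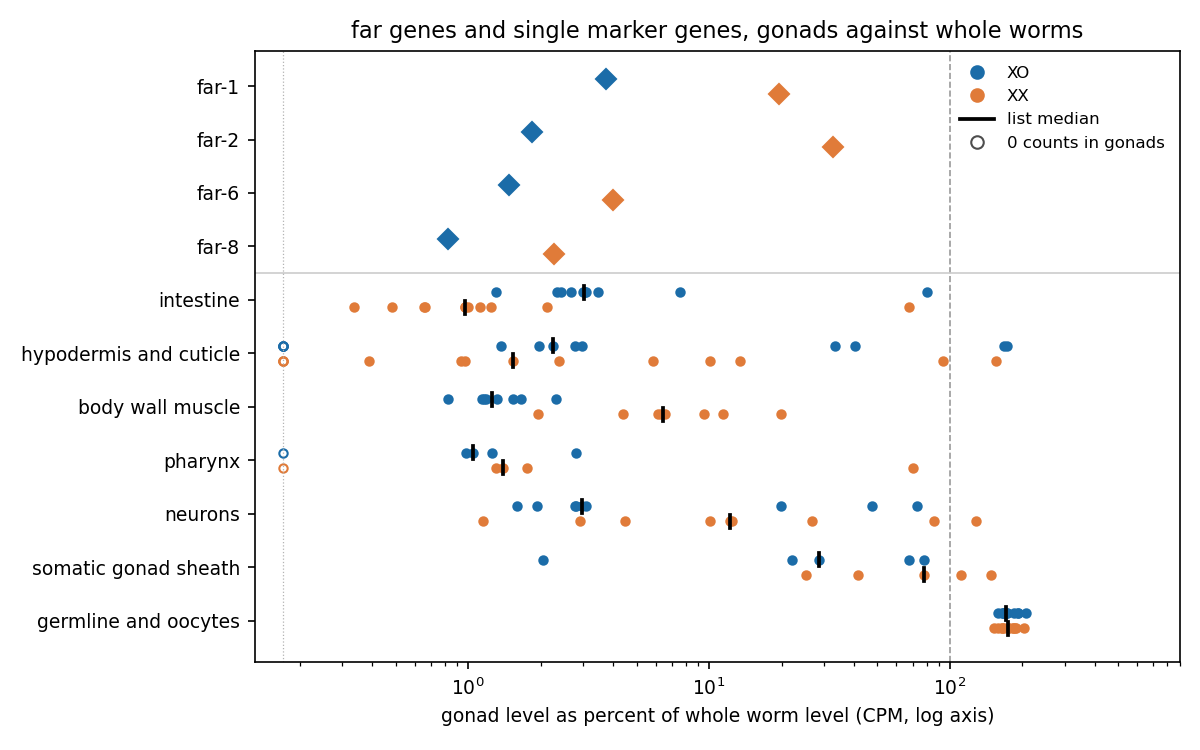
Gonad level as a percent of the whole worm level of the same karyotype (mean CPM, log axis) for 4 far genes (diamonds) and single marker genes (circles, with list medians as black bars), XO in blue above XX in orange; open circles are markers with 0 gonad counts and the dashed line marks equal levels. In XX animals far-1 (19.6%) and far-2 (32.6%) lie above all but 1 intestine marker, while in XO animals (3.75% and 1.84%) they lie among the intestine markers, whose median is 3.03%.

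The order of the 4 groups differed within the family. All members but far-2 were highest in XO worms and second in XX worms, and these 2 groups overlapped for far-4 and far-5. For far-2, XX worms came first and XO worms second, with overlapping ranges. The gonads followed in every case, with XO gonads last and below XX gonads without overlap for far-1 and far-2. For far-3 and far-7, XX gonads came last, below XO gonads without overlap, on 2 against 12 and 0 against 6 counts. Gonads of the 2 karyotypes overlapped for far-4, far-5, far-6 and far-8. Across the 12 libraries, log2 CPM of far-3, far-5, far-6, far-7 and far-8 correlated with each other at Pearson's r from 0.94 to 0.99, and those of far-1 and far-2 at 0.95. The correlations of far-2 with the 5 others ran from 0.63 to 0.77 and those of far-1 from 0.83 to 0.93. These describe 12 libraries in 4 groups that share the step from gonad to whole worm, which most genes of the body share too.

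The 2 genes most like each member over the 12 libraries, among 12527 others, reached r of 0.996 to 0.999. For far-2 they were the X-linked genes pfn-2, which encodes a profilin, and twf-2, which encodes a twinfilin. The level of pfn-2 averaged 3.41 CPM in XO gonads, 29.6 in XX gonads, 58.5 in XO worms and 63.6 in XX worms. For far-1 they were decr-1.1 and the X-linked histone gene his-71. For far-6 they were ccch-1 and the X-linked collagen gene col-168. For far-3 they were rfip-1 and Y43C5A.3, and for far-5 scav-6 and bas-1, an amine synthesis gene. Those of far-7 were C15A11.7 and F25E5.16, and those of far-8 were Y69A2AR.22 and the X-linked F33C8.4. Such likeness was common for the members with few gonad reads. The share of genes with r of at least 0.95 was 20.4% for far-6, 17.6% for far-3, 17.4% for far-5, 13.9% for far-7 and 12% for far-8. It was 4.98% for far-1 and 3.11% for far-2.

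Other lipid gene lists divided in gonads, where 19.7% of all genes tested fell and 8.07% rose. Of 7 lbp genes tested, listed by family name as intracellular lipid binding proteins, 4 fell and 3 did not pass, with a median log2 fold change of -2.17. They included lbp-6, at 9.06 ± 1.43 CPM in XO gonads and 41.7 ± 4.64 CPM in XX gonads (log2 fold change -2.17), and the X-linked lbp-1 (-2.89). Of 5 fatty acid synthesis genes and regulators tested, 2 fell and 3 did not pass (median -0.36). The fatty acid synthase gene fasn-1 was at 14.8 ± 2.47 CPM in XO gonads and 309 ± 112 CPM in XX gonads (-4.36), and sbp-1, which encodes the SREBP-type regulator of lipid synthesis, fell by 1.28 on the log2 scale. Of 8 yolk lipoprotein and yolk handling genes, 6 fell, all of them vitellogenins, whose near-identical copies may share reads, 1 rose and 1 did not pass (median -3.03). They included vit-4 (-3.46) and vit-2 (-3.08). The 1 that rose was dsc-4 (1.13), named after its values were seen, and it did not pass when replicate 1 or 2 of XO gonads or replicate 2 of XX gonads was left out. The vitellogenins were low in gonads, at 0.382% to 0.531% of their whole worm level in XX animals and 6.94% to 10.7% in XO animals. Their levels in XO worms were uneven, with vit-2 at 499, 31.9 and 140 CPM, so the XO percentages rest largely on XO worm replicate 1. Where their gonad reads came from was not tested.

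The desaturase genes that passed lay the other way in gonads. Tests covered 6 desaturase genes, of which 3 rose and 3 did not pass (median 0.82). They included fat-2, the neighbour of far-6, at 33.1 ± 7.98 CPM in XO gonads and 12.5 ± 4.21 CPM in XX gonads (log2 fold change 1.43), and fat-5 (1.92). The number that rose was 1 when replicate 1 or 2 of XO gonads was left out, and 0 when replicate 3 of XO gonads or replicate 2 of XX gonads was. It was 1 with a replicate block. Summed over the list, desaturase levels overlapped, at 246 to 260 CPM in XO gonads and 201 to 255 CPM in XX gonads. Of 6 elongase genes tested, elo-5, needed for branched fatty acids, rose by 1.14 and 5 did not pass (median 0.02). No elongase gene rose when replicate 1 or 2 of XO gonads, or replicate 2 or 3 of XX gonads, was left out, and 2 rose when replicate 1 of XX gonads was.

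In whole worms the lipid lists divided again. Over all genes tested there, 53.4% were called. Of all genes, 29.2% rose and 24.2% fell, and these are the shares beside which the rises and falls of each list stand. Of 6 desaturase genes tested, 5 rose and 1 did not pass (median log2 fold change 0.75), for example fat-4 (0.77) and fat-3 (0.91). The neighbour of far-6, fat-2, was at 1070 ± 43.6 CPM in XO worms and 628 ± 27.3 CPM in XX worms (0.68). Of 8 intracellular lipid binding protein genes tested, 4 fell and 4 did not pass (median -0.28), including lbp-5 (-1.24) and lbp-2 (-0.73). In this list 3 fell when replicate 1 or 2 of XO worms, or replicate 1 or 3 of XX worms, was left out. Without XX worm replicate 2 the number was 5, and with all 12 libraries in the fit it was 3. Of 8 elongase genes, 1 rose, 5 fell and 2 did not pass (median -0.57), including elo-3 (-0.42) and elo-2 (-1.06). The number that fell was 3 when replicate 3 of XO worms, or replicate 1 or 3 of XX worms, was left out, and none rose when replicate 2 of XO worms, or replicate 2 or 3 of XX worms, was. Of 6 synthesis genes and regulators, 1 rose, 3 fell and 2 did not pass (median -0.38), led by fasn-1 (-1.19) and sbp-1 (-1.13). None of them rose when replicate 1 or 2 of XO worms, or any 1 replicate of XX worms, was left out. Of 8 yolk genes, 7 fell and 1 did not pass (median -7.44), including vit-3 (-7.67, SE 1.14) and the yolk receptor gene rme-2 (-0.34). The level of vit-3 was 62.8, 4.65 and 15.5 CPM in XO worms, against a mean of 5070 ± 830 CPM in XX worms, so replicate 1 set the XO mean. Without XO worm replicate 1, vit-3 was at -9.04 and the list's median at -8.85.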

How the data were processed

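Each library came with raw, unnormalized counts per gene as deposited by the authors. Tools listed in the submitters' processing notes, without their roles, are TopHat2 2.0.12 and Cufflinks 2.2.0, with HTSeq, SAMtools 1.2 and CASAVA 1.8. Libraries kept strand through dUTP, per the labels' protocols. No coordinates are printed because the genome build, annotation and strand setting behind the counts are not given in the sources used here. Of 20389 gene rows, 19899 matched 1 gene of the WBcel235 annotation (symbol, chromosome, exonic length). Lines that name no gene stayed out of all fits. Among them, reads placed at several sites made up 7.15% ± 1.43 of reads in XO gonads, 7.21% ± 1.96 in XX gonads, 13.5% ± 0.719 in XO worms and 19.3% ± 1.48 in XX worms (SD, n = 3). Whether far genes share reads with each other was not tested.

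Tests used edgeR 4.0.16 in R 4.3.3 with TMM scaling and robust fits of the quasi-likelihood model, after filterByExpr (minimum count 10). Tests were 2-sided, with Benjamini-Hochberg adjustment over all genes tested and a threshold of 0.05. XO against XX was fitted on the 6 libraries of each tissue, and the other comparisons on all 12. The code was tested on simulated data. CPM levels were scaled over all 12 libraries, and SE came from the F statistic. The floor of 3 counts over a group bounds folds against 0 counts. Alternatives were DESeq2 1.42.0, its size factors in edgeR, TMM on autosomal genes, no filter, a replicate block, all 12 libraries in each fit and leaving out each library. Members, gene lists and tests were chosen with earlier results of these data known. Named were all far genes, fog-1, up to 2 called genes per lipid list and XO over XX comparison with the smallest adjusted p, and the 2 genes most correlated with each member in log2 CPM (prior count 2).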

Additional observations from a re-analysis of the deposited data

Results flagged for a closer look

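The difference between XO and XX animals was not the same in gonads and whole worms for far-1, far-2 and far-6, by the interaction term of edgeR's quasi-likelihood fit. The log2 fold change of XO over XX in gonads minus that in whole worms was -2.39 for far-1, -4.15 for far-2 and -1.44 for far-6. In CPM scaled over all 12 libraries, all 3 XO gonad libraries lay below all 3 XX gonad libraries for far-2. By the same scaling, 2 of 3 XO whole worm libraries lay below all XX whole worm libraries. For far-6 the 3 XO whole worm libraries lay above the 3 XX whole worm libraries, while the gonad ranges overlapped.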

How the results depend on the processing

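Of 393 values of single members under alternative settings, 385 kept their direction and their side of the threshold, 3 lost the call, 2 gained one and 3 changed sign, the cause of which was not tested. The changes of sign were in interactions that did not pass: far-3 was at -0.11 when replicate 3 of XX gonads was left out, and far-5 at -0.14 and -0.04 when replicate 2 or replicate 3 was, in ranges of -0.11 to 0.68 and -0.14 to 3.04 over all libraries left out. In whole worms 5 members were called, and 3 with all 12 libraries in the fit. With 1 library left out, the number of members called was 2 for XO against XX gonads, 4 to 6 for whole worms, 7 to 8 for each tissue comparison and 3 to 4 for the interaction. Same-numbered XO and XX gonads correlated in their deviations from the group mean at -0.27, 0.01 and -0.09, and whole worms at -0.01, 0.01 and -0.01. Deviations of 3 libraries from their mean sum to 0, so these values cannot exclude a pairing by replicate number. With a replicate block the numbers of members called were 2 and 5 for XO against XX, 7 for each tissue comparison and 3 for the interaction, as without it. Over all genes, the block gave 348 higher and 1274 lower calls in gonads, against 691 and 1685 without it. The gonad counts over all genes were 1667 higher and 2118 lower when replicate 1 of XX gonads was left out, and 376 to 537 higher and 1319 to 1642 lower for each other library. They were 1529 higher and 2517 lower with all 12 libraries in the fit, which gave 3352 higher and 1680 lower calls in whole worms, against 3584 and 2962 in the 6-library fit. Depth limited the gonad values of far-3, far-4, far-5 and far-7, which rest on 0 to 12 counts per group.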
